A study of Ovis aries and Mus musculus with 10 samples.

Results

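The miRNAs miR-10a, miR-10b, miR-196a and miR-196b are encoded within the Hox gene clusters. They were followed in the mammary gland of 2 species, sheep and the mouse strain CD1, which is outbred. They were chosen by name: probes that the scanner files list as mmu-miR-10a, mmu-miR-10b, mmu-miR-196a and mmu-miR-196b, 4 of the 567 mouse miRNAs on the array. The series holds 10 one-colour Agilent miRNA arrays, 5 per species, each hybridised with Cy3-labelled miRNA from 100 ng of total RNA of whole snap-frozen gland. The sheep arrays held ewes in cycle (day 15), pregnant ewes on days 14, 64 and 125, and lactating ewes on day 60. The mouse arrays held virgins (labelled day 0), pregnant mice on days 10 and 17, and lactating mice on days 2 and 10. No treatment, allele or transgene is given for any group, and the sheep breed, the ages and the number of animals behind each sample are not given in the sources used here. Each stage and day had 1 array, so the p-values of limma measure the spread between days of a stage class within a species. In the fit with additive terms for species and stage class, they also take in differences between the species in stage changes. Part of this spread may be technical. Gland samples contain epithelium, fat, stroma, vessels and blood, and fewer cells of a type and less RNA per cell cannot be told apart.

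Hox clusters are chromosomal runs of homeobox genes that set position along the body axis, and the miRNAs lying between these genes are transcribed with their neighbours in many tissues. miR-10 miRNAs lie upstream of the Hox4 genes and miR-196 miRNAs lie near the Hox9 and Hox10 genes. Both families are known to repress Hox mRNAs, and miR-196a is known for directing cleavage of the Hoxb8 transcript. Hox genes themselves act in mammary gland growth. miR-10b has been studied in invasion of breast tumours, and miR-10a in vessels and in retinoic acid responses.

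On the mm9 assembly given by the file headers, the 2 probes for miR-10a matched chr11:96178502-96178522 and the 4 probes for miR-196a matched chr11:96126501-96126522, both within the Hoxb cluster, with 51979 bases between these targets. The 2 probes for miR-10b matched chr2:74564133-74564153 in the Hoxd cluster, and the 2 probes for miR-196b matched chr6:52180128-52180147 in the Hoxa cluster. Mature miR-196a is also made from a copy in the Hoxc cluster, so its probes report the sum over both loci. In the RefSeq gene table of the sheep assembly ARS-UI_Ramb_v3.0, MIR10A overlapped HOXB3 and stood beside HOXB4 and HOXB5, and MIR10B overlapped HOXD4 and stood beside HOXD3 and HOXD8. The probe targets were 20 and 21 bases long for both miR-10 miRNAs, 19 to 22 for miR-196a, and 19 and 20 for miR-196b. Each of these miRNAs had 20 spots per array and no spot was saturated. The paralogs within each family differ by a single base in their mature forms, so signal from one on the probes of the other cannot be told apart from its own. The match of the mouse probes to the sheep miRNAs was not tested.

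Values are given as a percent of the 75th percentile of the 94 miRNAs that were detected on all 10 arrays, taken array by array. Differences are given as log2 values. Over the sheep arrays that percentile ran from 1998 (cycle) to 788 (lactation), and in mice it was 937 at gestation day 17 and 246 at lactation day 10. Values under 2.90% (log2 -5.11) were set to that floor before any difference was taken. A value under the floor has no order among others under the floor. Probes differ in how brightly they report, so a ratio between paralogs is read only for how it differs between arrays, not as relative abundance. All 6 epithelial marker miRNAs (the miR-200 family and miR-205) were above the floor on all 10 arrays. The mouse virgin array carried all 4 striated muscle markers at a mean log2 value of -1.33 and the 3 red cell markers at -1.07, and the gestation day 17 array carried the muscle markers at -2.85. The muscle markers were at the floor on the other 3 mouse arrays. Mouse virgin and mouse gestation day 10 shared slide 2, and the remaining 8 arrays shared slide 1.

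miR-10b was the only 1 of the 4 miRNAs above the floor on all 10 arrays, kept a narrow course, and stood slightly higher in lactation. All its spots kept for analysis were well above background on every array. In sheep, miR-10b stood at 22.3% in cycle. It was 20.9% on day 14, 23.9% on day 64 and 21.2% on day 125 of gestation, and 30.1% in lactation. In mice it stood at 20.5% in virgins, at 26.4% on day 10 and 28.1% on day 17 of gestation, and at 31.2% and then 30.0% on days 2 and 10 of lactation. All 3 lactation arrays were thus above all 5 gestation arrays and both arrays from animals that were not pregnant.

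The whole course of miR-10b spanned 0.52 in sheep and 0.60 in mice on the log2 scale. Of the 74 miRNAs above the floor on all 10 arrays, 93.2% had a wider span in sheep and 81.1% in mice. Mean log2 values of miR-10b were -2.22 ± 0.08 (SD, n = 2) when not pregnant, -2.06 ± 0.19 (SD, n = 5) in gestation and -1.72 ± 0.03 (SD, n = 3) in lactation. Adjusted for species, lactation was above gestation by 0.31 ± 0.10 (SE), with a 95% interval of 0.08 to 0.54. limma gave an unadjusted p of 0.0163 and an adjusted p of 0.151 over the 213 miRNAs tested, so the difference did not pass the threshold of 0.05. With the 28 tested miRNAs at the floor on all 10 arrays left out, the SE rose to 0.13. limma's unadjusted p was then 0.046 and its adjusted p 0.237. Against the animals that were not pregnant the difference was 0.48 ± 0.12 (SE), and limma's adjusted p was 0.0691.

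Groups that did not overlap in this direction were seen for 3.76% of the 213 miRNAs between lactation and gestation, and for 8.92% between lactation and the class not pregnant. Without scaling between arrays, where lactation minus gestation had a median of -0.67 over all miRNAs, the difference of miR-10b turned to -0.79. Relative to that median it was -0.12. Of the 6 epithelial marker miRNAs, 5 also stood higher in lactation than in gestation and 0 were called by limma. Their summed values were 386% to 1156% over the gestation arrays of sheep and 1018% in lactation. In mice they were 302% and 654% in gestation and 1078% and 1420% in lactation. Their part in the course of miR-10b was not tested.

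**Figure D1:**
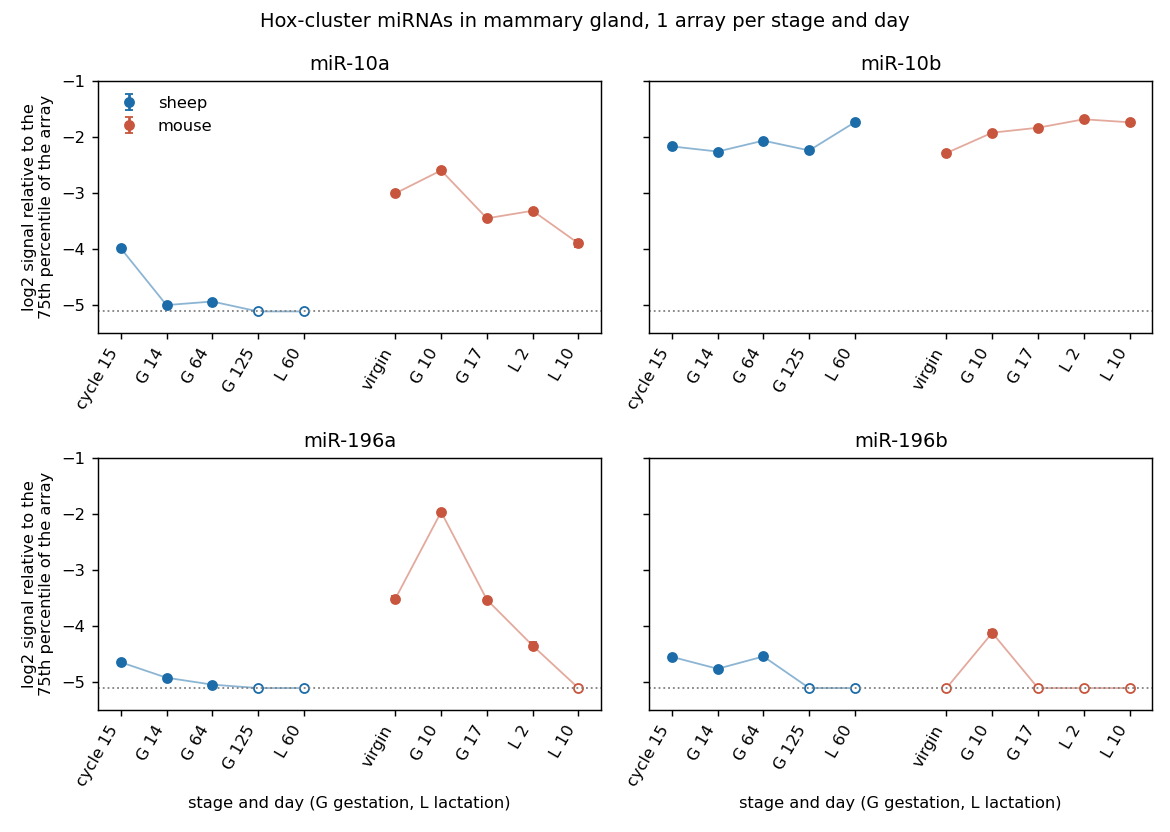
Log2 signal of the 4 miRNAs relative to the 75th percentile of each array, by stage and day, with sheep in blue and mouse in red. Each point is 1 array, bars (mostly smaller than the points) are the standard error over spots, and open points lie at the floor of -5.11 (dotted). miR-10b stays between -2.28 and -1.68, while miR-196a reaches -1.97 in mice at gestation day 10 and lies at the floor at lactation day 10.

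miR-10a, whose mature form shares its seed with miR-10b, took a different course. In sheep it stood at 6.33% in cycle, 3.13% on day 14 and 3.28% on day 64 of gestation. It lay under the floor at gestation day 125 and in lactation, with measured values of 2.67% and 2.80%. In mice it stood at 12.5% in virgins, at 16.6% on day 10 and 9.16% on day 17 of gestation, and at 10.1% and then 6.72% on days 2 and 10 of lactation. The cycle array was the highest of the sheep arrays, and gestation day 10 the highest of the mouse arrays. miR-10a was detected on all 10 arrays.

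Every sheep array of miR-10a was below every mouse array. The highest sheep value, 6.33% in cycle, lay just under the lowest mouse value, 6.72% at lactation day 10. The mean log2 value was -4.83 ± 0.48 (SD, n = 5) in sheep and -3.25 ± 0.49 (SD, n = 5) in mice. Adjusted for stage class, sheep was lower by 3.12-fold, a log2 difference of -1.64 ± 0.25 (SE) with a 95% interval of -2.23 to -1.05. limma's adjusted p was 0.00383. Since 2 of the 5 sheep arrays lay at the floor, this difference rests in part on the floor value. With a floor 4 times lower, under which none of the miR-10a values fell, it was -1.67.

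miR-10a was the only 1 of the 4 miRNAs that passed in sheep against mouse, where 21.6% of the 213 tested miRNAs passed and 13.1% of the 213 passed as lower in sheep. Every sheep array lay below every mouse array for 9.86% of the 213. With slide as a term, the difference of miR-10a was -1.46 (limma's adjusted p 0.0305), and on the 8 arrays of slide 1 it was -1.54 (limma's adjusted p 0.00601). The call was lost without scaling (-0.53, against a median of all miRNAs of 0.69), with normexp background correction (-0.06), and with the authors' value table (-1.42, limma's adjusted p 0.105). With normexp, 8 of the 10 miR-10a values lay at the floor of that setting.

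Marker miRNAs of several cell types also differed between the species. Of the 4 adipocyte-associated miRNAs, 3 were lower in sheep by limma, with miR-193b at -2.70 ± 0.43 (SE, adjusted p 0.00465). The summed values of these 4 were 68.6% to 151% over the sheep arrays and 167% to 341% over the mouse arrays. All 3 red cell markers had a lower estimate in sheep and 1 was called by limma, miR-451 at -3.40 ± 0.43 (SE, adjusted p 0.00172). Red cell sums were 15.1% to 62.0% over the sheep arrays and 172% to 597% over the mouse arrays. All 4 striated muscle markers had a lower estimate in sheep and 0 of 4 were called by limma. Of the 6 epithelial markers, 5 had a higher estimate in sheep, and miR-429 was called lower at -2.35 ± 0.64 (SE, adjusted p 0.0418 by limma). Among the 5 leukocyte markers, limma called 1 higher in sheep, miR-142-3p at 1.51 ± 0.41 (SE, adjusted p 0.0418). It called 1 lower, miR-223 at -2.59 ± 0.36 (SE, adjusted p 0.00293). The fibroblast and smooth muscle list had 0 of 5 called, and the endothelial list 0 of 2. The part of these cell types in the difference of miR-10a was not tested.

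The largest step of miR-10a in sheep lay between cycle day 15 and gestation day 14, with a log2 difference of -1.01 ± 0.03 (SE over spots), or 2.02-fold. Both probes were lower at day 14. Of the 115 miRNAs above the floor on both arrays, 4.35% moved further. With normexp, both arrays were at the floor and the step was 0. In mice the largest step was -0.86 from gestation day 10 to day 17, which crosses the 2 slides, and 26.1% of 115 miRNAs moved further there. Later log2 steps in mice were 0.13 to lactation day 2 and -0.58 to lactation day 10. No replicate array stands behind any of these steps.

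Across stage classes miR-10a did not pass in any comparison by limma. Lactation differed from gestation by -0.33 ± 0.28 (SE, adjusted p 0.705), and lactation from the class not pregnant by -0.89 ± 0.35 (SE, adjusted p 0.243). Gestation differed from the class not pregnant by -0.56 ± 0.32 (SE, adjusted p 1). In sheep alone the 3 gestation arrays were 0.95 to 1.13 below the cycle array. In mice gestation day 10 was 0.41 above and day 17 was 0.45 below the virgin array. The first gestation array thus lay below the cycle array in sheep and above the virgin array in mice, on days that were not matched between the species. That difference between species was not tested.

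The ratio of the miR-10 paralogs was higher in lactation than before gestation in both species. It was computed as the log2 value of miR-10b minus that of miR-10a on the same array, so a scaling constant cancels except where miR-10a is at the floor. It contains the unknown difference in brightness of the probes, so only its changes can be read. In sheep the log2 ratio was 1.82 in cycle, 2.74 on day 14, 2.87 on days 64 and 125 of gestation, and 3.38 in lactation. In mice it was 0.72 in virgins, 0.67 on day 10 and 1.62 on day 17 of gestation, and 1.63 and then 2.16 on days 2 and 10 of lactation. The sheep arrays at gestation day 125 and lactation day 60 used the floor for miR-10a.

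The mean log2 ratio was 2.73 ± 0.57 (SD, n = 5) in sheep and 1.36 ± 0.64 (SD, n = 5) in mice. The difference of 1.37 had an exact two-sided permutation p of 0.0159, where the smallest p that 5 against 5 arrays allow is 0.00794, and this was the only paralog pair that could be tested. The values of the species overlapped: sheep in cycle, at 1.82, was below mouse lactation day 10, at 2.16. The difference turned to -0.26 with normexp (exact permutation p 0.127), a setting in which miR-10a lay at the floor on 8 of 10 arrays. Sheep and mouse stages were not matched in day.

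**Figure D2:**
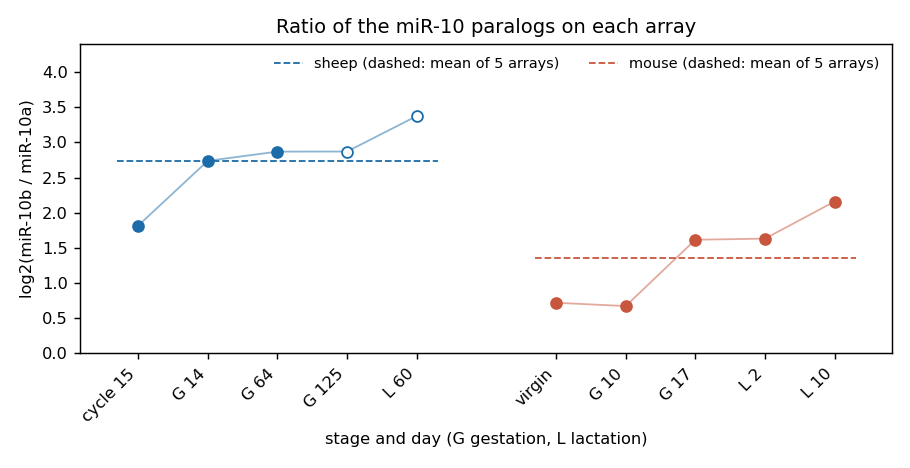
Log2 ratio of miR-10b to miR-10a on each array, by stage and day, with sheep in blue and mouse in red. Open points are arrays with miR-10a at the floor, and dashed lines are the means, 2.73 in sheep and 1.36 in mice. Within each species the highest ratio is that of the latest lactation array.

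miR-196a had the widest course of the 4, which was the one in mice. There it stood at 8.75% in virgins, at 25.6% on day 10 of gestation and at 8.64% on day 17. It was 4.90% at lactation day 2 and was not detected at lactation day 10, with a measured value of 2.16%, under the floor. In sheep it stood at 3.99% in cycle, 3.29% on day 14 and 3.02% on day 64 of gestation. It lay under the floor at gestation day 125 (2.85%) and in lactation (1.63%). It was not well above background at sheep lactation day 60 or at mouse lactation day 10.

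The single array at mouse gestation day 10 set this peak. From virgin to gestation day 10, both on slide 2, the log2 step of miR-196a was 1.55 ± 0.05 (SE over spots), or 2.92-fold, and all 4 probes were higher at day 10. Of the 113 miRNAs above the floor on both arrays, 2.65% moved further. From gestation day 10 to day 17 the step was -1.57 ± 0.03 (SE over spots), with 8.70% of 115 miRNAs moving further, and this step crosses the slides. Of its 4 probes, 1 was not lower at day 17, the one with a 19-base target, whose signal stayed between 0.818 and 20.7 over all arrays. The later steps were -0.82 to lactation day 2 and -0.76 to lactation day 10, the last of them ending at the floor.

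The step to gestation day 10 was between 0.53 (normexp) and 1.78 (no scaling) over 7 other settings, and the step to day 17 was between -2.84 (authors' value table) and -0.53 (normexp). The log2 span of miR-196a over the mouse arrays was 3.14, and 9.46% of the 74 miRNAs above the floor on all arrays spanned more. In sheep its span was 0.46, bounded by the floor. Fibroblast and smooth muscle marker miRNAs had their highest sum in mice at the same array, where miR-199b stood at 214% and the sum at 297%. The markers did not share that peak: miR-199a-5p and miR-199b were highest at gestation day 10, miR-214 in virgins (26.6% against 23.4%), and miR-143 at gestation day 17 (53.2% against 28.1%). miR-145 was at the floor at gestation day 10. The summed values of the 5 on the array were 266% in virgins, 297% on day 10 and 175% on day 17 of gestation, and 93.8% and then 65.9% on days 2 and 10 of lactation. Of these 5, 4 were above the floor at gestation day 10 and 3 at lactation day 10. Their part in the course of miR-196a was not tested.

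No difference of miR-196a passed by limma. Lactation differed from gestation by -1.14 ± 0.52 (SE, adjusted p 0.333), with means of -4.86 ± 0.44 (SD, n = 3) and -4.12 ± 1.37 (SD, n = 5). As contrasts of a 6-mean fit over all 10 arrays, lactation minus gestation was -1.98 ± 0.59 (SE, adjusted p 0.223) in mice and -0.08 ± 0.68 (SE, adjusted p 1) in sheep. That fit pools the spread over both species, and the 1 sheep lactation array is assumed to vary like the other groups. The mouse arrays fitted alone gave a SE of 0.80 and an adjusted p of 0.463 for the same difference. The difference between the species in this change was 1.90 ± 0.90 (SE, adjusted p 0.647), with a 95% interval of -0.50 to 4.29. The floor bounds these lactation changes. In sheep the lactation array and 1 of 3 gestation arrays lay at it, so no fall larger than that of -0.08 could appear. Measured sheep values were 3.29%, 3.02% and 2.85% on the gestation arrays and 1.63% in lactation. In mice 1 of 2 lactation arrays was at the floor. A flat course in sheep therefore cannot be read from these values. Gestation differed from the class not pregnant by 0.12 ± 0.59 (SE, adjusted p 1). Without mouse gestation replicate 1 (day 10) this turned to -0.32, and without the mouse virgin array to -0.11.

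Sheep differed from mouse for miR-196a by -1.50 ± 0.45 (SE), and limma's adjusted p of 0.0612 missed the threshold. Its highest sheep value, 3.99%, was below 4 of the 5 mouse values. This call changed with several settings. Without the sheep array of lactation day 60 the difference was -1.94 (limma's adjusted p 0.04), and with a floor 4 times lower it was -1.68 (limma's adjusted p 0.0144). Within slide 1 it was -0.97 (limma's adjusted p 0.157), and with slide as a term -0.87 (limma's adjusted p 0.308). Without mouse gestation day 10 it was -1.01 (limma's adjusted p 0.0575).

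miR-196b lay at the floor on 6 of the 10 arrays, 4 of them in mice. It was detected on every sheep array. In sheep in cycle and on gestation days 14 and 64, all its kept spots were well above background. In sheep it stood at 4.26% in cycle, 3.68% on day 14 and 4.28% on day 64 of gestation, and lay under the floor at gestation day 125 (2.53%) and in lactation (1.86%). In mice only gestation day 10, at 5.73%, was above the floor, and the miRNA was not detected at lactation days 2 and 10. The virgin array (2.88%) and gestation day 17 (2.81%) lay just under the floor. All 3 lactation arrays were therefore at the floor. The differences were -0.37 ± 0.27 (SE) between lactation and gestation and 0.02 ± 0.23 (SE) between sheep and mouse, with adjusted p-values by limma of 0.616 and 1. The first is bounded by the floor, at which 2 of 5 gestation arrays also lay. With a floor 4 times lower it was -1.57 (limma's adjusted p 0.0422), a setting that takes in a mouse array where miR-196b was not detected. For the second, 2 of 5 sheep and 4 of 5 mouse arrays were at the floor, so it does not show equal levels.

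In mice the signal of miR-196b was highest on the array where that of miR-196a was highest. As unscaled signal, miR-196b was 32.9%, 22.4% and 32.5% of miR-196a on the mouse arrays where both were detected, which were virgin and days 10 and 17 of gestation in that order. On the sheep arrays, all of which detected both, miR-196b was 88.8% to 142% of miR-196a. At mouse gestation day 10 the longer probe of miR-196b carried 88.4% of the signal of the pair, against 74.4% to 77.7% on the other 2 mouse arrays where it was detected. Whether probes for miR-196b take up miR-196a was not tested.

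**Figure D3:**
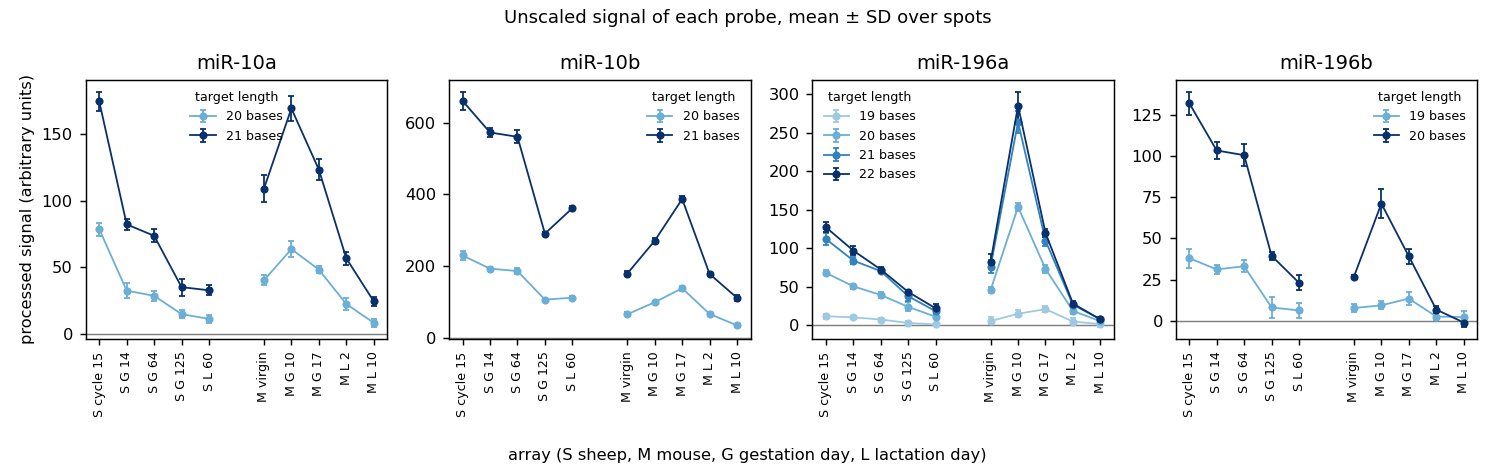
Unscaled processed signal of every probe of the 4 miRNAs on each array, with sheep arrays on the left of each panel and mouse arrays on the right. Points are means and bars are SDs over the spots of a probe, and colours give the length of its target. The 3 longer probes of miR-196a peak together at mouse gestation day 10, and the probe with the 19-base target stays between 0.818 and 20.7.

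Over the stage comparisons as a whole, 0 of the 4 miRNAs passed by limma between lactation and gestation, where 2.82% of 213 miRNAs passed. At an unadjusted p under 0.05 there was 1 of 4, miR-10b, and 34 of 213. Between lactation and the class not pregnant 0 of 4 passed against a background of 3.76%, with 2 of 4 and 40 of 213 at an unadjusted p under 0.05. Between gestation and the class not pregnant 0 of 4 passed against 0.469%, with 0 of 4 and 5 of 213 unadjusted. For the difference between species in the lactation change, 0 of 4 passed against 0.939%, with 0 of 4 and 16 of 213 unadjusted. The median difference of the 4 was -0.35 between lactation and gestation, with 3 of 4 below 0. The median of all 213 tested miRNAs was -0.0018, but 28 of these were at the floor on all arrays, with a difference of 0. Without those 28, the median between lactation and gestation was -0.073 and the differences of the 4 did not change. In that setting 15 of 185 miRNAs passed by limma, and 0 of the 4.

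**Figure D4:**
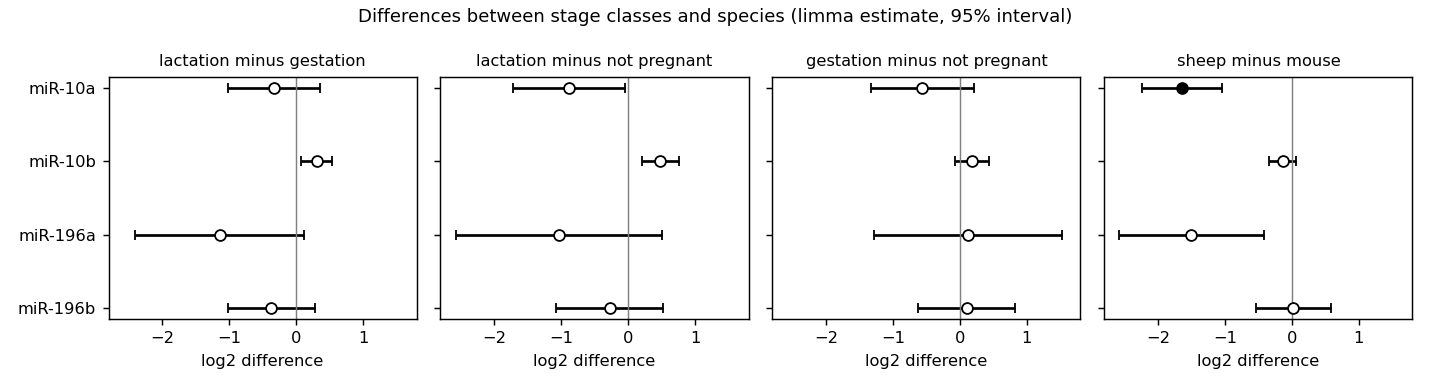
Log2 differences of the 4 miRNAs between stage classes and between species, as estimated by limma from all 10 arrays, with 95% intervals. The filled point, miR-10a in sheep against mouse at -1.64, is the one with an adjusted p under 0.05. The interval of miR-10b in lactation against gestation runs from 0.08 to 0.54, and those of miR-196a are the widest.

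The other Hox-cluster miRNAs on the array were not detected. The passenger strands miR-10a*, miR-10b* and miR-196a*, and both arms of miR-615, which lies in the Hoxc cluster, were on the array. None of these 5 was detected on any of the 10 arrays, on 20 spots each. The targets of miR-196a* and miR-615 lie on chromosome 15, as the Hoxc cluster does, and no other probe used here reads out that cluster alone. Their probe targets were 12 to 18 bases long, shorter than those of the 4 miRNAs above.

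The kin of miR-10 outside the Hox clusters, miR-99a, miR-99b and miR-100, have mature forms close to miR-10 and lie beside let-7 and miR-125 genes. In lactation against gestation 1 of these 3 was called lower by limma: miR-99a fell by 1.83 ± 0.33 (SE, adjusted p 0.0486). That call depended on the setting. With normexp, the authors' value table, slide as a term, or slide 1 alone, 0 of the 213 miRNAs passed in this comparison. miR-100 differed by -1.50 ± 0.43 (SE, adjusted p 0.122) and miR-99b by -0.19 ± 0.20 (SE, adjusted p 0.766). In sheep, the log2 values of miR-100 were -1.74 in cycle, -2.06, -1.77 and -2.82 over gestation and -3.02 in lactation. In mice they were -2.32 in virgins, -2.21 and -3.28 in gestation, -4.37 at lactation day 2 and at the floor at day 10. miR-100 was thus lower on every lactation array than on any gestation array of its species, the opposite order to miR-10b. In sheep this rests on 1 lactation array, at -3.02 against -2.82 on the lowest gestation array. With both species together, the lactation and gestation arrays of miR-100 overlapped, unlike those of miR-10b. The share of the 213 miRNAs with such an order within each species is not given here. In sheep against mouse, none of the 3 kin was called by limma: miR-99a differed by 0.83 ± 0.29 (SE, adjusted p 0.0881), miR-100 by 0.87 ± 0.37 (SE, adjusted p 0.146), and miR-99b by -0.38 ± 0.17 (SE, adjusted p 0.168).

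**Figure D5:**
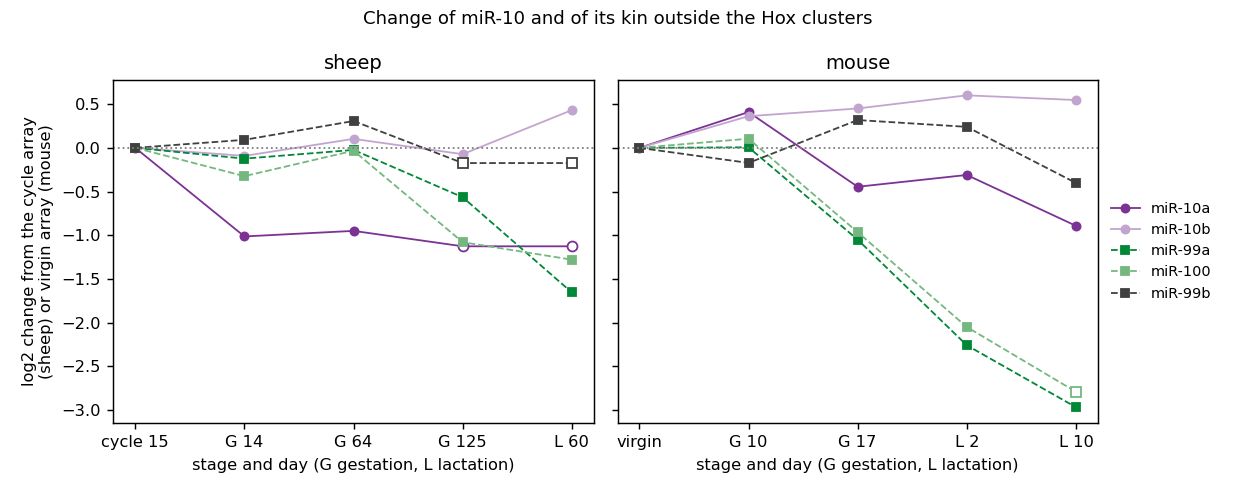
Log2 change of miR-10a, miR-10b and their kin miR-99a, miR-99b and miR-100 from the cycle array in sheep (left) and from the virgin array in mice (right), by stage and day. Each point is 1 array, circles are the Hox-cluster miRNAs, squares their kin, and open points lie at the floor. miR-10b ends above its first value in both species, while miR-99a and miR-100 are lowest in lactation.

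The miRNAs of most like course were found by the root mean square difference over the 10 arrays of log2 values centred on each species' mean, among 91 other miRNAs above the floor on at least 8 arrays. For miR-10b the nearest were miR-23b at 0.12, miR-26b at 0.25 and miR-30e at 0.25, where the median over all 91 was 0.59. For miR-10a the nearest were miR-27a at 0.32, miR-23a at 0.33 and miR-342-3p at 0.34, with a median of 0.65. miR-10a and miR-10b stood 0.54 apart. The arrays share scaling and stage, so these distances are a description. miR-196a and miR-196b were above the floor on 7 and 4 arrays and were not ranked.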

How the data were processed

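Per the labels' protocols, RNA of snap-frozen mammary gland (RNA integrity number at least 6) was labelled with Cy3. The deposited scanner files hold each spot's intensity on a linear scale, background-subtracted and detrended within the array and not normalized across arrays, per the file headers. These headers name Agilent Feature Extraction 10.5.1.1, and the submitters' processing notes version 9.5. The authors' value table, also an intensity, equalled the total signal per miRNA times 1 constant per array, within 0.1% for 98.6% to 100% of miRNAs above 50. Its column medians ran from -3.94 to 0.31 for sheep and from -11.6 to 0.84 for mice. The basis of the constants and any centring stay unknown.

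Outlier spots were left out, spots averaged per probe and probes per miRNA, and arrays scaled to the 75th percentile of 94 shared miRNAs. The floor was the highest over arrays of the 5th percentile of detected miRNAs. The 213 miRNAs detected on at least 3 arrays were fitted with limma 3.58.1 (R 4.3.3; lmFit, eBayes, Benjamini-Hochberg), by an additive model of species and stage class with 6 residual degrees of freedom, or by 6 means with 4. The paralog ratio was compared by an exact two-sided permutation test. Alternatives varied the scaling, background correction, probe summary, floor, filter, slide and arrays used. The fitting was tested on simulated data without a floor and without miRNAs that hardly varied, so that test does not cover values at the floor. The 4 miRNAs were named by rule whatever their values. Other named miRNAs were the remaining Hox-cluster miRNAs, the miR-10 kin, marker lists and the 3 nearest in course. The members and lists were chosen with earlier results of these data known.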

Additional observations from a re-analysis of the deposited data

Results flagged for a closer look

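Each of the 4 miRNAs was checked in each species for a single array standing apart, by the gap to the nearest value relative to the whole range. For independent draws from a normal distribution, the critical value would mark about 1 in 20 groups of this size. The arrays of a species are different stages and some lie at the floor, so that rate need not hold here. 2 single arrays stood apart from the other 4 of their species. The first was miR-10a in sheep in cycle day 15, at a log2 value of -3.98, where the next sheep value was -4.93 and the gap was 0.84 of the range against a critical value of 0.71. The second was miR-196b in mice at gestation day 10, at -4.12, with the other 4 mouse arrays at the floor. The first rests in part on the floor, at which 2 of the other 4 sheep arrays lay. The second rests wholly on the floor, since the other 4 mouse arrays were set to the same value. Their measured values were 2.88% in virgins, 2.81% at gestation day 17, and 1.18% and 0.226% on lactation days 2 and 10, against 5.73% at gestation day 10.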

How the results depend on the processing

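No paired analysis was possible because replicate numbers only name arrays of different days. Over 23 other settings, 10 of them leaving out 1 array, the count of the 4 miRNAs called stayed 0 for lactation or gestation against the class not pregnant, and for the species difference in the lactation change where that could be fitted. For lactation against gestation it became 1 without scaling (miR-196a, -2.33, limma's adjusted p 0.032) and 1 with a floor 4 times lower (miR-196b, -1.57, limma's adjusted p 0.0422), and stayed 0 to 0 when arrays were left out. For sheep against mouse, normexp and the authors' table gave 0, and a floor 4 times lower and leaving out miRNAs at the floor on all arrays each gave 2. Leaving out 1 array gave 1 to 2, with 2 without sheep lactation replicate 1 (day 60). Without scaling the count was again 1, but it was miR-10b in place of miR-10a. The ratio of miR-10b to miR-10a turned to -0.258 with normexp and was 1.20 to 1.60 when arrays were left out.

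Among the limma differences, changes of sign were limited to values that were not called, apart from miR-10b in sheep against mouse without scaling. For miR-10b, lactation minus gestation was -0.79 without scaling, lactation minus not pregnant was -0.69 without scaling and -0.15 with the authors' table, and gestation minus not pregnant was -0.032 with the 75th percentile over all miRNAs, -0.092 with normexp, -0.76 with the authors' table and -0.020 in sheep alone. Sheep minus mouse for miR-10b was 0.12 with that percentile, 0.11 with quantile normalization and 1.00 without scaling, where it was called (limma's adjusted p 0.0487). The median of all miRNAs then stood at 0.69, and for lactation minus not pregnant at -0.78. For miR-10a with normexp, the 3 stage differences were 0.0062 (lactation minus gestation), 0.042 (lactation minus not pregnant) and 0.036 (gestation minus not pregnant), and the species difference in the lactation change was -0.0034. For gestation minus not pregnant, miR-196a was -0.075 and miR-196b -0.10 with the percentile over all miRNAs, -0.49 and -0.36 with the authors' table (median of all -0.41), -0.25 and -0.29 on slide 1 alone, -0.38 and -0.25 in sheep alone, and -0.32 to 0.36 and -0.23 to 0.45 when arrays were left out. For miR-196b, lactation minus not pregnant was -0.64 to 0.041 when arrays were left out. Sheep minus mouse for miR-196b was -0.081 with the brightest probe, -0.35 with the authors' table and -0.12 to 0.26 when arrays were left out. Its species difference in the lactation change was -0.34 with no scaling, -0.30 with a slide term, -0.30 on slide 1 alone and -0.30 to 0.68 when arrays were left out. With normexp, 8 values of miR-10a, 9 of miR-196a and 10 of miR-196b lay at the floor; other causes were not tested. Each species alone was not run for the species comparisons, nor was the species difference in the lactation change without the only sheep lactation array. The floor limits miR-196a, miR-196b and sheep miR-10a, which lay at or near it on many arrays. It is the same scaled value on every array, so signal well above background can lie near it on bright arrays. All kept spots of sheep miR-10a were well above background in cycle and on gestation days 14 and 64. Having 1 array per day limits every step.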
